A study of Mus musculus with 37 samples.

Results

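Mature luminal cells that carried the D542G substitution in estrogen receptor alpha were compared with wild-type (WT) mature luminal cells, both taken from ovariectomized mice under progesterone (P4). The comparison used 7 of the 37 libraries of the series: 3 titled for D542G with P4 and 4 titled for WT ER with P4, chosen by their titles alone and not by any measured value. The mice were raised to 8 weeks of age and ovariectomized, and a P4 pellet stayed in place for 8 days before the mammary glands were taken and the mature luminal cells were sorted by flow cytometry. Strain and the way the mutant allele was made are not given in the sources used here, nor is its zygosity. The other groups used below are WT and D542G cells under placebo, under estradiol (E2) and under E2 with P4, and cells with a second Esr1 substitution, Y541S, under P4, each with 3 libraries and all from ovariectomized mice. The design text calls the libraries biological replicates, and no label says whether a library came from 1 animal or a pool.

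Estrogen receptor alpha, encoded by Esr1, is a nuclear receptor that binds estradiol and then activates transcription, and progesterone acts through a related receptor encoded by Pgr. In the mammary gland both receptors sit in the hormone-sensing subset of luminal cells, which pass the hormonal signal to neighbouring cells by secreted factors such as RANKL (Tnfsf11), Wnt4 and amphiregulin (Areg). D542G and Y541S lie in the ligand-binding domain, where substitutions found in hormone-resistant breast cancers make the receptor active without estradiol.

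The 7 libraries held 30641704 to 44551169 counts and 19606 to 20599 genes with a count, and no pair of replicates agreed within sampling noise. Values are given as CPM, the counts-per-million scale, after scaling of library totals by the trimmed mean of M-values (TMM). Markers were read for the luminal part of the sort label: the luminal keratins Krt18 (4270 to 7710 CPM) and Krt19 (5210 to 10900 CPM) were high in all 7 libraries. This does not tell mature luminal cells from luminal progenitors. Of the markers of other cell types, Ptprc of leukocytes was at 0.092 to 3.65 CPM and Adipoq of adipocytes at 0.0541 to 1.11 CPM. Others were higher: Cd74 of leukocytes was at 16.1 to 74.8 CPM, Pecam1 of endothelium at 7.34 to 38.2 CPM, and Col3a1 of fibroblasts at 212 CPM in WT P4 3 and 199 CPM in D542G P4 2 against 20.6 to 41.0 CPM elsewhere.

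Libraries D542G P4 2 and WT P4 2 stood apart from the rest of their groups. D542G P4 2 correlated with the other D542G P4 libraries at 0.922 and 0.935 across genes, against 0.972 between those 2. Its summed mitochondrially encoded genes reached 17900 CPM against 2660 to 5600 in the other 6 libraries, its luminal progenitor and alveolar list 16500 against 3870 to 6770, its leukocyte list 180 against 25.1 to 94.4 and its adipocyte list 222 against 31.2 to 96.0. WT P4 2 had summed G2 and M phase genes at 687 CPM against 129 to 139 in the other WT P4 libraries, and basal and myoepithelial genes at 912 against 210 to 229. It also held 8 keratins of the hair follicle (Krt25, Krt27, Krt28, Krt35, Krt36, Krt71, Krt73 and Krt75, looked up after their values were seen) at a summed 3080 CPM, against 0.0676 to 31.1 in the other 6 libraries. These 8 keratins were called lower in D542G (adjusted p 0.0281 to 0.0483), and none was called without WT P4 2 (log2 changes -7.19 to -2.86, adjusted p 0.17 to 0.697) or without D542G P4 1 (adjusted p 0.0909 to 0.126). WT P4 4 and 5 carry identifiers of a later series than the other 5 libraries, so values are also given for the first series alone, which holds WT P4 2 and 3 and the 3 D542G P4 libraries. In bulk samples of this kind, fewer cells of a type and less RNA per cell cannot be told apart.

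**Figure D1:**
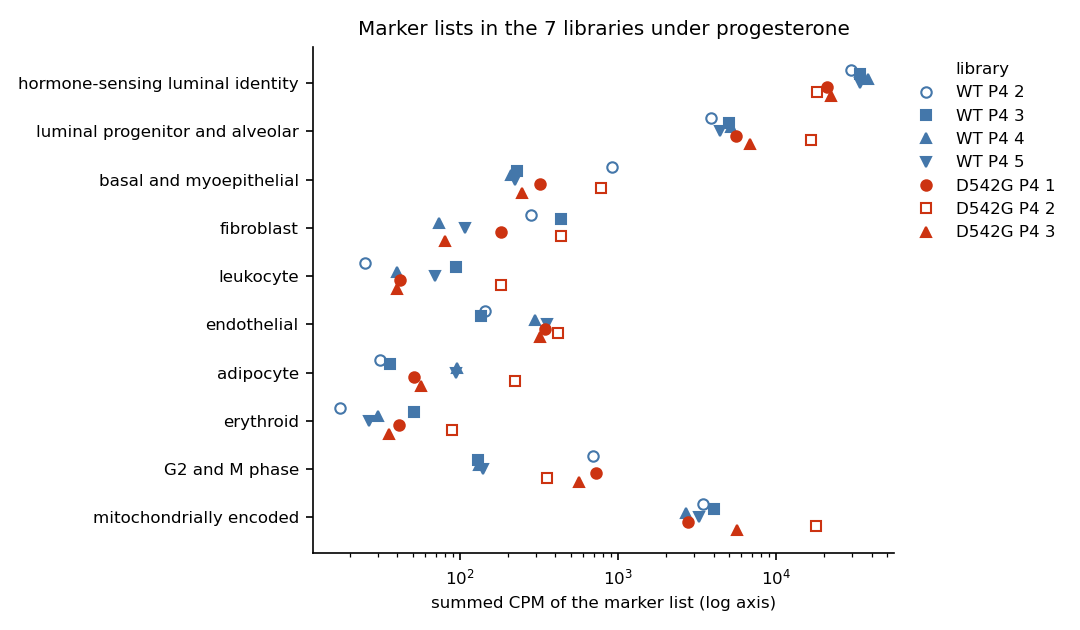
Summed CPM (log axis) of 10 marker lists in each of the 7 libraries, WT P4 in blue and D542G P4 in red, with open symbols for WT P4 2 and D542G P4 2. D542G P4 2 lies above the other 6 libraries for the progenitor, leukocyte, adipocyte, erythroid and mitochondrial lists, and WT P4 2 lies with the D542G libraries for G2 and M phase genes.

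Esr1 itself was lower in the mutant. Its level was 580, 607, 439 and 523 CPM in WT P4 and 130, 78.6 and 107 CPM in D542G P4, so that all 3 mutant libraries lay below all 4 WT libraries. The log2 fold change was -2.35 ± 0.34 (standard error, SE; edgeR quasi-likelihood test, adjusted p = 2.66e-05), 5.1-fold lower. The counts are per gene and do not read the substituted base, so this level does not check the genotype.

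Across the 18426 genes tested, 2402 (13.0%) were called at an adjusted p under 0.05 by edgeR's quasi-likelihood test with Benjamini-Hochberg adjustment. Of these, 1149 were higher in D542G (6.24% of the genes tested) and 1253 were lower (6.80%), and 4936 genes had an unadjusted p under 0.05. A change of at least 4-fold was reached by 374 of the rises and 152 of the falls. The median log2 change over all genes was 0.027, and in 2117 of the 2402 called genes the 2 groups of libraries did not overlap, as in 4251 of all 18426 genes tested. The balance of directions depended on the scaling and tool: with the size factors of DESeq2 in place of TMM 1313 were higher and 1077 lower, and with DESeq2 itself 1694 and 1468. Without D542G P4 2 the number called was 1285, without either of the WT P4 libraries of the later identifier series 1361, and without WT P4 5 alone 1623. Without WT P4 2 it was 2427, of which 2028 were among the 2402. A fit of the compared groups alone called 1536 and ended the calls of 25 named genes (adjusted p 0.0505 to 0.197): Cdkn1a, Ctsj, Cxcl9, Epgn, Erbb4, Gdf15, H2-Ab1, Herpud1, Hspa1b, Junb, Krt19, Krt6a, Maml2, Mcm7, Pfkfb3, Pola1, Relb, Slc2a4, Slpi, Tagln, Tle3, Tph1, Trim15, mt-Co1 and mt-Cytb.

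**Figure D2:**
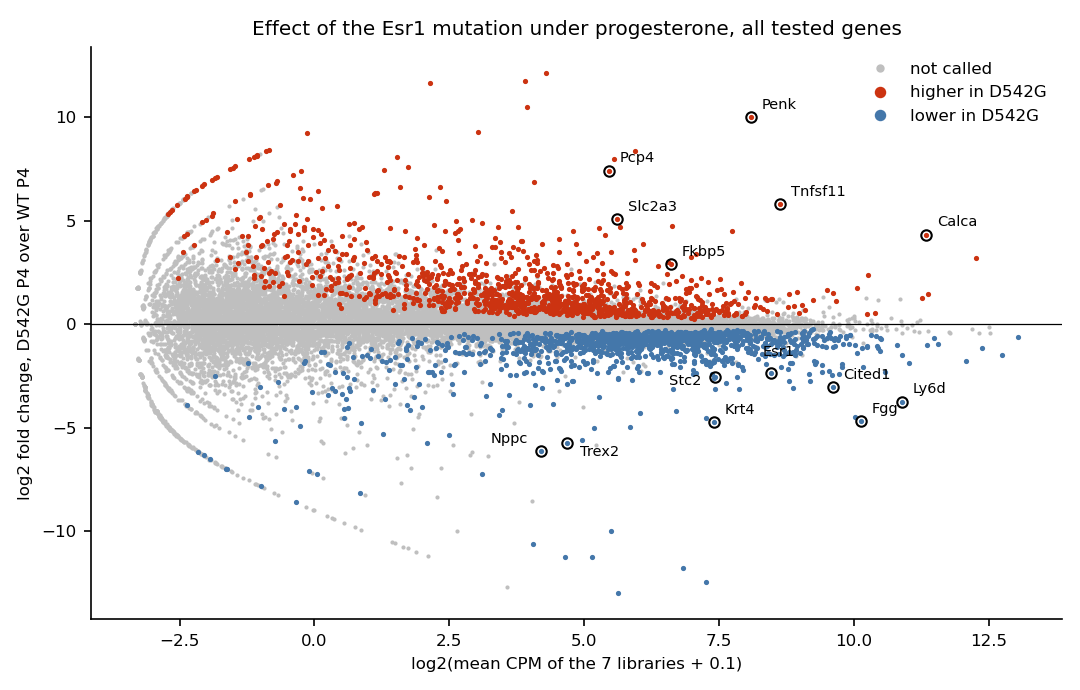
Each point is 1 of the 18426 genes tested, placed by log2 of its mean CPM over the 7 libraries plus 0.1 (x) and its log2 fold change in D542G P4 over WT P4 (y), with genes called higher in red, lower in blue and not called in grey. Circled genes are described in the text, with Penk at 10 the highest of them and Nppc at -6.15 the lowest; the called falls beyond -10 include Krt71 of the hair follicle, at -12.44.

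The signals that hormone-sensing cells send to their neighbours held several of the largest rises. Of 20 paracrine factors tested, 6 were called higher and 1 lower, with a median log2 change of 0.30 (3 and 1 with the first identifier series alone, meaning without WT P4 4 and 5). Over all genes tested, 6.24% were called higher and 6.80% lower. On leaving out single libraries the median ranged from -0.03 without D542G P4 2 to 0.58 without D542G P4 3, so the list did not shift as a whole. Tnfsf11, the RANKL cytokine that drives progesterone-induced growth of the neighbouring progenitors, was at 15.8, 39.9, 6.15 and 2.83 CPM in WT P4 and at 1160, 783 and 776 CPM in D542G P4. Every mutant library was above every WT library, by 5.81 ± 1.02 on the log2 scale (adjusted p = 0.000319). Calca, which encodes calcitonin and its related peptide and marks progesterone action in this cell type, was at 315, 645, 93.2 and 74.6 CPM in WT P4 and 8370, 5100 and 3650 CPM in D542G P4. It rose by 4.34 ± 0.80 (adjusted p = 0.000521), and no WT library came near the lowest mutant one. Penk, the precursor of the enkephalin opioid peptides, was almost absent from WT P4 (0.598, 1.57, 0.0961 and 0.127 CPM). It stood at 1770, 81.3 and 60.7 CPM in D542G P4, and its log2 change of 10 ± 1.14 (adjusted p = 1.52e-06) was the largest of the 15 leading rises. Groups that lay apart were a condition for the leading rises, so their separation adds nothing for Tnfsf11, Calca and Penk. The size of these 3 rises moved with single libraries: Penk was at 6.84 without D542G P4 1 and 11.05 without WT P4 3, Tnfsf11 at 6.77 and Calca at 5.15 without WT P4 3. With the libraries of the first identifier series alone they were 9.23, 5.03 and 3.57, and all stayed called.

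Tnfsf11 (chr14:78277445-78308043, minus strand) and Calca (chr7:114631478-114636357, minus strand) are shown with the 250 bases before their start sites, because both encode signals known to respond to progesterone and both rose. The sequences are from RefSeq on GRCm38.p6, 5′ to 3′, and capitals mark the half-site of the estrogen response element (GGTCA, on either strand).
Tnfsf11 chr14:78308044-78308293: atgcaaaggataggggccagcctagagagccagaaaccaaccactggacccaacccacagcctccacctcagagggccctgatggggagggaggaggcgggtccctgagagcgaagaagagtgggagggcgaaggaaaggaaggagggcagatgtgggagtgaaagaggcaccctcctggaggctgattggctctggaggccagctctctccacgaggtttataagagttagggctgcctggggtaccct
Calca chr7:114636358-114636607: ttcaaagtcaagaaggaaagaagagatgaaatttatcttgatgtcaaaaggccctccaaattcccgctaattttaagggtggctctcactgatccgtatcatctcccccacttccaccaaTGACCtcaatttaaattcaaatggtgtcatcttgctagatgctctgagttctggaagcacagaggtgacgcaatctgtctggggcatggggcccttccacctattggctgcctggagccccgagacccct
The Calca window held 1 such half-site and the Tnfsf11 window none, and neither held the full palindrome GGTCANNNTGACC, the progesterone receptor half-site AGAACA or its palindrome GAACANNNTGTTC. Among the 12672 tested genes with a promoter sequence, GGTCA was in 33.18% of windows of this length, AGAACA in 11.58% and each palindrome in 0.02%. Among promoters of genes called higher GGTCA was in 31.63% and AGAACA in 13.32%, and among those of genes called lower in 30.92% and 9.99%. These are matches of letters in a short window and say nothing of binding.

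Other paracrine factors moved less or not at all. Bmp3, a ligand of the bone morphogenetic protein family, was at 36.6, 47.3, 24.7 and 19.1 CPM in WT P4 and 303, 84.2 and 132 CPM in D542G P4 (log2 change 2.44 ± 0.53, adjusted p = 0.00224), was at 1.76 without D542G P4 1 and lost the call with the first identifier series alone (2.05, adjusted p = 0.0676). Tph1, which makes serotonin, was called higher (1.75 ± 0.58, adjusted p = 0.0426), but the value rested on D542G P4 1 at 495 CPM, against 28.9 and 110 CPM in the other 2, and was 0.15 without it (adjusted p = 0.9). It also lost the call without WT P4 2, 4 or 5 (adjusted p 0.0715 to 0.119). Wnt7b, a Wnt ligand, fell from 366 to 463 CPM in WT P4 to 169 to 235 CPM in D542G P4 (-1.03 ± 0.21, adjusted p = 0.00125). The 2 classical relays did not pass the test: Areg, the epidermal growth factor receptor ligand that relays estrogen, had a log2 change of -0.21 ± 0.43 (adjusted p = 0.808), and Wnt4, a target of progesterone, one of -0.27 ± 0.51 (adjusted p = 0.788).

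**Figure D3:**
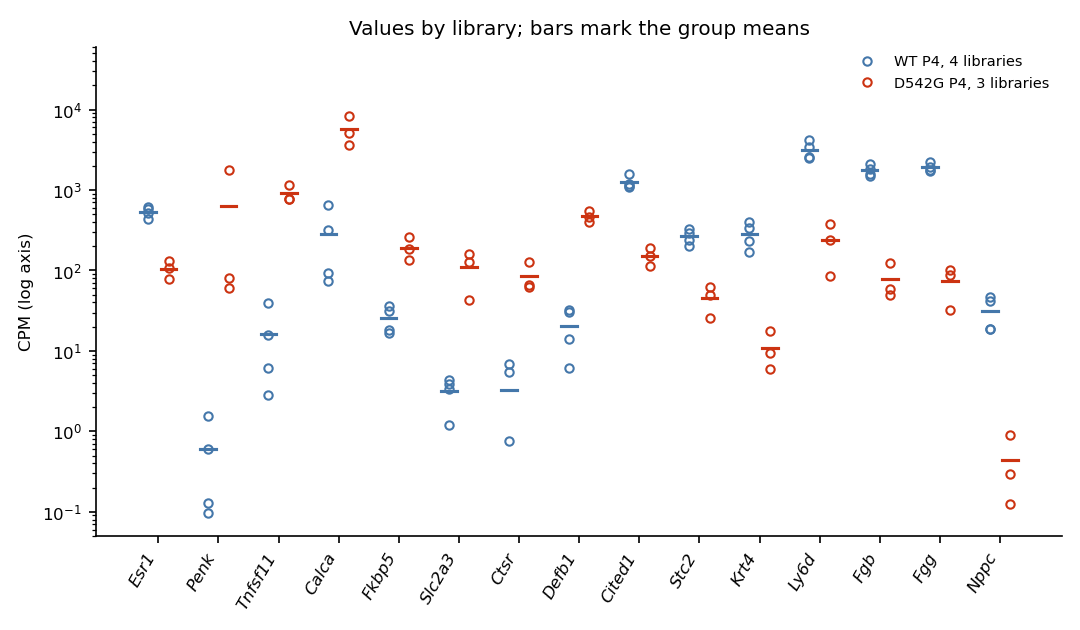
CPM (log axis) of 15 genes in the 4 WT P4 libraries (blue) and the 3 D542G P4 libraries (red), with bars at the group means and 1 Ctsr point of WT P4 (0.0318 CPM) below the axis. The 2 groups do not overlap for any of the 15 genes. For those taken from the leading rises and falls, this was a condition of the choice and is no result. D542G P4 1 sets the upper end for Penk and Calca.

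Targets of the progesterone and related steroid receptors did not move as a block. Of 18 tested, 4 rose and 1 fell, with a median log2 change of 0.89, and without D542G P4 2 these numbers were 3, 0 and 0.39. Fkbp5, a chaperone gene switched on by progesterone and glucocorticoids, was at 31.5, 36.3, 18.3 and 16.5 CPM in WT P4 and 258, 186 and 134 CPM in D542G P4, a rise of 2.91 ± 0.45 (adjusted p = 6.51e-05). Tsc22d3, the glucocorticoid-induced leucine zipper, rose by 1.47 ± 0.39 (adjusted p = 0.0114) and lost the call without D542G P4 2 (1.09, adjusted p = 0.12). Pgr, the receptor for the given hormone, was at 90.9, 128, 70.0 and 74.4 CPM in WT P4 and 109, 48.8 and 110 CPM in D542G P4. The groups overlapped and the log2 change was -0.02 ± 0.34 (adjusted p = 0.977).

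In the RANK pathway, 3 of 11 genes rose and 2 fell, with a median of -0.11, and on leaving out D542G P4 2 or WT P4 4 only 1 rose and 1 fell. Besides the ligand Tnfsf11, the cell cycle gene Ccnd1 rose by 0.84 ± 0.27 (adjusted p = 0.0405), a call that leaving out any of WT P4 3, 4, 5 or D542G P4 1, 2 ended (0.59 to 0.88). Id2, an inhibitor of basic helix-loop-helix factors that acts in alveolar growth, fell from 180 to 282 CPM in WT P4 to 40.3, 93.3 and 44.6 CPM in D542G P4 (-1.93 ± 0.30, adjusted p = 6.16e-05). Relb, a subunit of the alternative NF-kappaB factor, was lower by a small margin (-0.47 ± 0.15, adjusted p = 0.0395), and that call was lost on leaving out any library but WT P4 5.

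Genes that define hormone-sensing luminal cells were lower more often than higher. Of 20 tested, 9 fell and 1 rose, with a median log2 change of -0.55, and 6 fell and 0 rose without D542G P4 2. The summed level of the list was 29500 to 37700 CPM in WT P4 and 18000 to 22000 CPM in D542G P4, without overlap. Cited1, a transcriptional coactivator used as a marker of this cell type, was at 1110, 1180, 1590 and 1100 CPM in WT P4 and 115, 150 and 188 CPM in D542G P4 (-3.04 ± 0.49, adjusted p = 0.000106). Tbx3, a T-box factor of mammary development, fell from 460, 449, 666 and 816 CPM to 133, 104 and 185 CPM (-2.09 ± 0.30, adjusted p = 2.99e-05). Stc2, a secreted glycoprotein induced by estrogen, fell from 238, 202, 329 and 293 CPM to 62.7, 25.8 and 49.5 CPM (-2.53 ± 0.29, adjusted p = 1.52e-06). Ly6d, a surface protein, fell from 2510, 2580, 4180 and 3390 CPM to 85.2, 383 and 242 CPM (-3.74 ± 0.77, adjusted p = 0.00143). Prlr, the prolactin receptor, fell by 1.04 ± 0.32 (adjusted p = 0.0281), and leaving out D542G P4 1 or 2 or WT P4 4 or 5 ended that call (adjusted p 0.0519 to 0.134). Foxa1, the pioneer factor for estrogen receptor binding, was not called (-0.46 ± 0.40, adjusted p = 0.493), and neither were Krt8, Krt18 and Gata3. The luminal progenitor and alveolar list, given below, was higher in summed level in these same D542G libraries, and its part in the lower identity genes was not tested.

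Targets of the estrogen receptor moved in both directions: of 25 tested, 4 rose and 5 fell, with a median of 0.15. On leaving out D542G P4 1 or 2 or WT P4 4 or 5, 3 rose and 3 fell, and without D542G P4 2 the median was -0.07. Those that fell included Cited1, Stc2 and Rara, the retinoic acid receptor alpha, which went from 95.4, 94.9, 138 and 139 CPM to 49.7, 32.7 and 52.8 CPM (-1.38 ± 0.22, adjusted p = 0.000124). C3, a complement component, rose from 59.7, 86.4, 30.7 and 45.4 CPM to 236, 243 and 306 CPM (2.24 ± 0.38, adjusted p = 0.00018). Greb1, a coactivator that estrogen induces, had a log2 change of 0.03 ± 0.47 (adjusted p = 0.983). Upk3a, a uroplakin, was lower in each D542G library (10.5 to 24.5 CPM against 71.1 to 98.0 CPM) but did not pass the test (-2.32 ± 0.95, adjusted p = 0.108); it did in a fit of the compared groups alone (adjusted p = 0.00567).

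Coregulators of the estrogen receptor were called lower more often than higher: of 22 tested, 6 fell and 0 rose, with a median of -0.33. Over all genes tested, 6.80% were called lower and 6.24% higher. Without WT P4 2, 6 fell and 1 rose, and with the first identifier series alone 3 fell and 0 rose. Ddx5, an RNA helicase and coactivator, fell from 491 to 823 CPM to 287 to 373 CPM (-0.97 ± 0.18, adjusted p = 0.000436). Tle3, a Groucho-family corepressor, fell by 1.06 ± 0.26 (adjusted p = 0.00588) and was at -0.48 (adjusted p = 0.149) with the first identifier series alone. Among 28 nuclear receptors, 3 rose and 6 fell. Esrrb, an orphan receptor related to Esr1, rose from 1.26, 2.24, 2.75 and 1.43 CPM to 22.6, 7.52 and 18.2 CPM (3.07 ± 0.45, adjusted p = 3.56e-05). Nr1d2, a repressor of the circadian clock, fell from 65.5 to 77.1 CPM to 27.0 to 35.3 CPM (-1.19 ± 0.22, adjusted p = 0.000631).

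Genes of luminal progenitors and alveolar cells were called higher in 5 of 16 cases and lower in 1, with a median of 1.22. This count rested in part on D542G P4 2: without it 2 were higher and 0 lower, with a median of 0.73. Ehf, an epithelial ETS factor of the progenitor lineage, was at 57.1, 75.7, 74.5 and 85.6 CPM in WT P4 and 212, 557 and 220 CPM in D542G P4 (2.17 ± 0.40, adjusted p = 0.000522), and at 1.56 without D542G P4 2 it stayed called. Wfdc18, a protease inhibitor of alveolar cells, was at 290 to 732 CPM in WT P4 and 1000, 4370 and 1530 CPM in D542G P4, and Mfge8, a milk fat globule protein, at 1260 to 1810 CPM and 2360, 5860 and 2890 CPM. Their log2 changes of 2.39 ± 0.56 (adjusted p = 0.00434) and 1.29 ± 0.27 (adjusted p = 0.00188) went to 1.53 and 0.79 without D542G P4 2, and neither was then called (adjusted p = 0.103 and 0.0678). Elf5, the factor that directs alveolar differentiation, was at 6.07 to 19.7 CPM in WT P4 and 19.0, 39.0 and 26.1 CPM in D542G P4. It missed the threshold (1.16 ± 0.41, adjusted p = 0.0588) and passed it without WT P4 4 (1.46, adjusted p = 0.0315) or D542G P4 1 (1.37, adjusted p = 0.0487), with the first identifier series alone (1.91, adjusted p = 0.00741) and with DESeq2 (adjusted p = 0.0252).

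Of 15 milk genes tested, 6 rose, 0 fell and 9 were not called, with a median of 1.07 and a lowest value of -5.83, and without D542G P4 1 only 2 rose. The caseins Csn2 and Csn1s1 had 1 count each over the 4 WT P4 libraries, and stood at 134, 1.87 and 1.23 CPM and at 98.5, 4.10 and 1.63 CPM in D542G P4. The 2 calls were lost without D542G P4 1 (adjusted p = 0.159 for Csn2 and 0.0818 for Csn1s1). Cel, a lipase secreted in milk, rose in all 3 mutant libraries, from 1.68, 3.22, 2.95 and 3.53 CPM to 30.3, 28.2 and 10.6 CPM (3.02 ± 0.55, adjusted p = 0.000425).

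**Figure D4:**
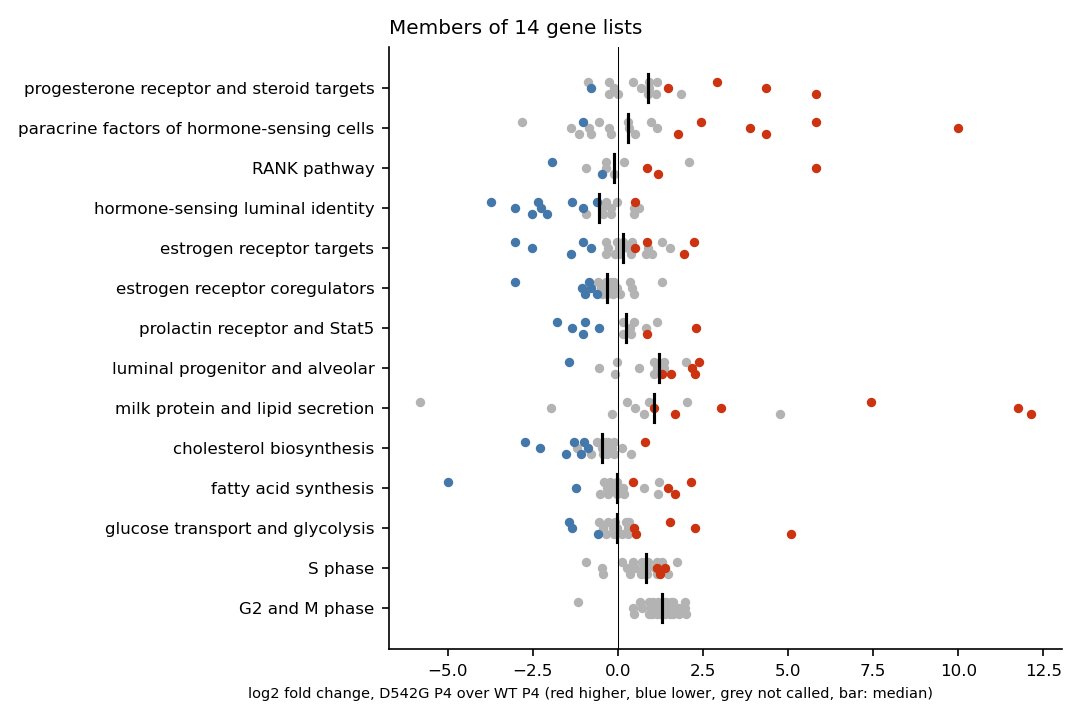
Log2 fold change in D542G P4 over WT P4 (x) of the tested members of 14 gene lists (y), coloured by call, with a black bar at each list's median. Rises of more than 5 on the log2 scale stand in the progesterone target, paracrine, RANK, milk and glucose transport lists, and 29 of the 30 G2 and M phase genes lie above 0 with none called.

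The largest falls included 2 genes for fibrinogen, the blood clotting protein. Fgb was at 1590, 1500, 1820 and 2130 CPM in WT P4 and 59.1, 50.1 and 125 CPM in D542G P4, and Fgg at 1770, 1720, 1910 and 2250 CPM and 88.3, 32.4 and 101 CPM. The log2 changes of Fgb and Fgg were -4.49 ± 1.10 (adjusted p = 0.00636) and -4.69 ± 1.02 (adjusted p = 0.00249), and Fgb missed the threshold when WT P4 2 and D542G P4 2 were left out together (adjusted p = 0.0508). The third chain, Fga (looked up after its values were seen), lies between them on chromosome 3 but was near 0 in both groups (0.192 to 0.46 CPM in WT P4, 0 in D542G P4) and not called (adjusted p = 0.0841). The 250 bases before the starts of Fgg (chr3:83007724-83015049, plus strand) and Fgb (chr3:83040141-83049863, minus strand) are shown because these neighbours moved together. Sequences are from RefSeq on GRCm38.p6, 5′ to 3′, with capitals at CTGGGAA, the core of the acute phase element through which interleukin 6 acts on fibrinogen genes in liver.
Fgg chr3:83007474-83007723: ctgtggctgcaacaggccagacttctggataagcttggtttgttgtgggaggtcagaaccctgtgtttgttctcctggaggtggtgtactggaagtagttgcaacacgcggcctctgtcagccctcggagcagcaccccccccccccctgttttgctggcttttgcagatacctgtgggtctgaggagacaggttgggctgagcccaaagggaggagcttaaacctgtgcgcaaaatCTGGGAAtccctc
Fgb chr3:83049864-83050113: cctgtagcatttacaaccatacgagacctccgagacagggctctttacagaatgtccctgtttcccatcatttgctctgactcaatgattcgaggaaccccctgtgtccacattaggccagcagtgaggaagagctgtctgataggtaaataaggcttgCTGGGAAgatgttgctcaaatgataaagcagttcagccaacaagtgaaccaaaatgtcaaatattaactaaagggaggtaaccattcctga
Each window held CTGGGAA once, and 9.6% of all 12672 promoter windows held it on either strand. Among genes called lower the share was 9.67%.

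Of 14 keratins and mucins tested, 3 fell and 1 rose, with a median of -0.39, and the numbers were 1 and 0 without D542G P4 2 and 3 and 3, with a median of 0.17, without WT P4 2. Krt4, a keratin of stratified mucosa, went from 172, 235, 340 and 404 CPM to 17.6, 5.90 and 9.33 CPM (-4.72 ± 0.63, adjusted p = 1.08e-05). Krt6a, a keratin of activated and ductal epithelium, fell by 1.61 ± 0.44 (adjusted p = 0.0148) and lost the call without D542G P4 2 (-1.24, adjusted p = 0.115). Krt19 fell by 0.63 ± 0.18 (adjusted p = 0.0159) and likewise lost it (-0.50, adjusted p = 0.127). Among the other large falls, Nppc, the precursor of C-type natriuretic peptide, had the largest fall of the 15 leading falls, from 18.9, 18.9, 41.9 and 46.4 CPM to 0.124, 0.901 and 0.298 CPM (-6.15 ± 0.94, adjusted p = 6.51e-05), and was at -7.18 without D542G P4 2. Trex2, an exonuclease of keratinocytes, fell from 23.3, 25.1, 77.1 and 51.5 CPM to 1.05, 0.676 and 0.754 CPM (-5.74 ± 0.74, adjusted p = 6.04e-06; -4.87 with the first identifier series alone). Fam25c fell from 230 to 283 CPM to 5.90, 13.7 and 14.1 CPM (-4.52 ± 0.67, adjusted p = 3.98e-05). Reg3g, an antibacterial lectin, fell by 4.15 ± 1.19 (adjusted p = 0.0195), and leaving out D542G P4 1 or 2 ended the call (adjusted p = 0.0517 and 0.101).

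In a group of falling genes WT P4 2 and 3 lay well below WT P4 4 and 5, the libraries of the later identifier series, so the size of the fall depended on which WT libraries were used. Pparg, the nuclear receptor of fat cell differentiation, was at 13.7, 31.1, 208 and 142 CPM in WT P4 and 3.66, 2.48 and 3.21 CPM in D542G P4. Its log2 change was -4.99 ± 0.76 (adjusted p = 5.56e-05) with all libraries, -2.84 with the first identifier series alone and -4.31 without WT P4 4, and it was called in each. Ddit4, an inhibitor of mTORC1 signalling, was at 31.2, 24.2, 216 and 170 CPM against 4.73, 7.03 and 4.98 CPM (-4.30 ± 0.57, adjusted p = 8.39e-06), and at -2.31 with the first identifier series alone. Cdh13, a cadherin without a transmembrane part, changed by -4.17 ± 0.72 (adjusted p = 0.000269) and by -3.21 in that fit, and Snai1, a repressor of E-cadherin, by -4.38 ± 0.80 (adjusted p = 0.00045) and by -3.04. Snai1 was at -5.16 without D542G P4 1. Gdf15, a stress-induced cytokine, and Trim15, a ubiquitin ligase, lost the call there: Gdf15 went from -3.88 to -1.34 (adjusted p = 0.293) and Trim15 from -5.04 to -2.09 (adjusted p = 0.267). Without WT P4 4 they were at -3.13 and -4.23 and called. Zfp979, a zinc finger gene, was at -3.89 ± 1.12 (adjusted p = 0.0194), and leaving out any of D542G P4 1, 2 or 3 or WT P4 5 ended its call (adjusted p 0.0527 to 0.0888).

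Among the remaining large rises, Slc2a3, the high-affinity neuronal glucose transporter, went from 3.84, 4.41, 3.36 and 1.21 CPM to 161, 42.7 and 126 CPM (5.09 ± 0.82, adjusted p = 0.000123). Defb1, a constitutive beta-defensin, went from 30.1, 32.4, 6.21 and 14 CPM to 555, 403 and 456 CPM (4.51 ± 0.91, adjusted p = 0.00123). The 2 groups were apart for each gene, which was a condition for the leading rises. Dkk3, a secreted protein of the Dickkopf family, rose from 1.15 to 4.30 CPM to 130, 19.5 and 33.8 CPM (4.53 ± 0.83, adjusted p = 0.000461; 3.33 without D542G P4 1). Gpr20, an orphan receptor, rose from 1.02 to 2.49 CPM to 27.3, 16.5 and 25.7 CPM (3.98 ± 0.77, adjusted p = 0.000867). Afap1l1, an actin filament-associated protein, rose by 4.13 ± 0.53 (adjusted p = 5.46e-06; 3.25 without D542G P4 1), and the ion channel genes Nalcn and Kcnd2 by 4.05 ± 0.89 (adjusted p = 0.00275) and 3.89 ± 0.84 (adjusted p = 0.00218). Adamts15, a matrix protease, rose by 4.00 ± 0.80 (adjusted p = 0.00105) with D542G P4 2 at 71.5 CPM against 7.76 and 12.4 CPM in the other 2 mutant libraries. Nalcn was at 4.75 without WT P4 3 and 3.21 without D542G P4 1, and lost the call with the first identifier series alone (adjusted p = 0.0659). Without D542G P4 2, Kcnd2 and Adamts15 were at 2.71 and 2.41 and still called, and they lost the call when WT P4 2 and D542G P4 2 were left out together (adjusted p = 0.0769 and 0.075). Pcp4 (7.42 ± 0.81, adjusted p = 9.78e-07), Dpep2 (4.72 ± 0.47, adjusted p = 2.53e-07) and Olfm4 (4.71 ± 1.14, adjusted p = 0.00602) also rose. However, 99.6%, 100% and 57.0% of their genomic span, introns included, overlaps other annotated genes, so their counts are uncertain. Pcp4 was at 6.18 without D542G P4 1.

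Below the expression level set for the leading genes, or outside their number, Nmu, Spock1 and Gpx3 were looked up after their values were seen. Nmu, the neuropeptide neuromedin U, had 4 counts over the 4 WT P4 libraries and was at 21.6, 20.6 and 14.7 CPM in D542G P4. Spock1, a proteoglycan, rose from 0.138, 0.433, 0.544 and 0.191 CPM to 73.1, 30.6 and 12.1 CPM (6.89 ± 0.88, adjusted p = 5.46e-06; 6.03 without D542G P4 1). Gpx3, the secreted glutathione peroxidase, rose from 911, 1070, 1500 and 885 CPM to 20500, 3000 and 6690 CPM (3.20 ± 0.39, adjusted p = 2.73e-06; 2.15 without D542G P4 1), so the size of this rise rested in part on 1 library.

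Ctsr and Ctsj, cathepsins of the cluster on chromosome 13 that is otherwise known from placenta, were called higher in the mutant. Ctsr was at 5.50, 6.95, 0.768 and 0.0318 CPM in WT P4 and 65.4, 63.0 and 127 CPM in D542G P4 (4.66 ± 1.04, adjusted p = 0.003), a change that was 5.29 without WT P4 3 and 3.78 with the first identifier series alone. Ctsj was at 4.32, 5.73, 0.576 and 0 CPM and at 8.21, 25.8 and 42.6 CPM (3.25 ± 0.94, adjusted p = 0.0212), and leaving out WT P4 4 or 5 or D542G P4 2 or 3 ended the call (adjusted p 0.0509 to 0.0855). It was at 3.92 without WT P4 3. Ctsq had no count in any WT P4 library, and was at 1.97, 0 and 3.71 CPM in D542G P4. Cts6 had 1 count in WT P4 and lost its call without D542G P4 3 (adjusted p = 0.105). Of 9 in the list these 4 passed the filter on low counts, which keeps a gene that is high in any group, so the number of them called higher supports nothing. These genes are close copies of each other, so the division of counts among them is uncertain.

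Genes of cholesterol synthesis were lower more often than higher. Of 22 tested, 7 fell and 1 rose, with a median of -0.46, and the summed level was 2070 to 2710 CPM in WT P4 and 894 to 1220 CPM in D542G P4. Without D542G P4 2, 5 fell and 1 rose. Msmo1, a sterol demethylase, was at 142, 138, 112 and 121 CPM and at 31.5, 13.8 and 33.1 CPM (-2.29 ± 0.27, adjusted p = 1.74e-06). Sc5d, a sterol desaturase, was at 170, 170, 189 and 174 CPM and at 87.5, 52.6 and 74.5 CPM (-1.30 ± 0.15, adjusted p = 1.52e-06). Hmgcs1, which makes the precursor of mevalonate, was at 128, 82.5, 49.6 and 73.4 CPM and at 31.5, 30.7 and 25 CPM (-1.52 ± 0.28, adjusted p = 0.000549), with 34.6% of its genomic span overlapped by another annotated gene. The groups did not overlap for these 3 genes. Sqle, the squalene epoxidase, was at 188 to 305 CPM and at 170 to 207 CPM, and was not called.

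Promoters of this pathway are bound by the sterol-sensing factor SREBP together with NF-Y, which binds the CCAAT box. The 250 bases before the starts of Hmgcs1 and Sc5d are shown for that reason, from RefSeq on GRCm38.p6, 5′ to 3′, with capitals at CCAAT and at the sterol regulatory element TCACNCCAC, on either strand and without overlap between the 2.
Hmgcs1 chr13:119690101-119690350, plus strand: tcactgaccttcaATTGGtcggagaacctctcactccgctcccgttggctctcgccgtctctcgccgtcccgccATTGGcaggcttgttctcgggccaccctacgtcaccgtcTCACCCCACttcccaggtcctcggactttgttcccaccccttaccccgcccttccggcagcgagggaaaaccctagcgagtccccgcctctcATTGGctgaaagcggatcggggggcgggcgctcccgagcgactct
Sc5d chr9:42264301-42264550, minus strand: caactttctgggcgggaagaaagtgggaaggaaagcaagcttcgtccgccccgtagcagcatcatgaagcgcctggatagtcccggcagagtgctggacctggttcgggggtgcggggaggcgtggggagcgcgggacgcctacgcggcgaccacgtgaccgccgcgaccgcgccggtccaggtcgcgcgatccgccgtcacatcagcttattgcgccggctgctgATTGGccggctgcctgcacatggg
Hmgcs1 held 3 CCAAT boxes and 1 sterol regulatory element, and Sc5d held 1 CCAAT box. For neither gene did the 20 bases after the start used here lie within the first 60 bases of an annotated transcript. They did for 71.8% of genes, so the placing of these windows is less sure. CCAAT was in 14 of the 16 windows of cholesterol genes that have a sequence and in 35.47% of all windows, and TCACNCCAC in 1 of the 16 and in 0.92% of all. The share with CCAAT was 35.18% among all genes called lower.

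Fatty acid genes split: of 19 tested, 4 rose and 2 fell, with a median of -0.02. Fads1 and Fads2, the desaturases that make long polyunsaturated fatty acids, rose together on chromosome 19. Fads2 was at 55.3, 59.5, 44.7 and 44.9 CPM in WT P4 and 173, 310 and 202 CPM in D542G P4 (2.16 ± 0.36, adjusted p = 0.000145), and Fads1 rose by 1.48 ± 0.29 (adjusted p = 0.00103). Scd2, a stearoyl desaturase, rose by 1.69 ± 0.43 (adjusted p = 0.00876) and lost the call without D542G P4 1 (1.42, adjusted p = 0.0536). Fasn and Acly, which build palmitate, were not called (-0.02 and 0.19).

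Of 21 genes of glucose transport and glycolysis, 5 rose and 3 fell, with a median of -0.02, and without D542G P4 2 the numbers were 2 and 0. Beside Slc2a3, Slc2a4, the insulin-regulated transporter, rose at a low level, from 0.0811 to 1.10 CPM to 2.44 to 5.47 CPM (2.27 ± 0.67, adjusted p = 0.0229), and leaving out WT P4 3 or 4 or D542G P4 2 ended the call (adjusted p 0.052 to 0.141). Hk2, which traps glucose in the cell, and Pfkfb3, an activator of glycolysis, fell by 1.35 ± 0.35 (adjusted p = 0.0101) and 1.43 ± 0.38 (adjusted p = 0.0113). Both lost the call without D542G P4 2 (adjusted p = 0.0951 and 0.0744).

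Signalling genes downstream of cytokine and growth factor receptors changed in both directions. Of 14 genes of the prolactin receptor and Stat5 pathway, 2 rose and 5 fell, with a median of 0.25. Without D542G P4 2 or WT P4 5, 1 rose and 3 fell, without D542G P4 1 or WT P4 4, 2 rose and 3 fell, and without WT P4 3, 1 rose and 5 fell. Socs2, a feedback inhibitor that Stat5 induces, rose from 9.48, 10.2, 12 and 6.46 CPM to 76.4, 31.3 and 32.7 CPM (2.30 ± 0.41, adjusted p = 0.00034), while Socs1, a second feedback inhibitor, fell from 25.7, 29.9, 52.3 and 46.4 CPM to 15.5, 8.02 and 10 CPM (-1.79 ± 0.31, adjusted p = 0.00029). Ptpn1, a phosphatase that acts on Jak2, fell from 548 to 729 CPM to 175 to 297 CPM (-1.34 ± 0.21, adjusted p = 9.7e-05). Stat5a and Stat5b themselves were at 0.15 and 0.16 and not called. In the IGF list, 14 of 17 log2 changes were above 0. Irs1, an adaptor of the insulin and IGF receptors, was the only member called higher (2.69 ± 0.44, adjusted p = 0.000145), with D542G P4 2 at 57.1 CPM against 10.8 and 10.9 CPM in the other 2. Without that library the change was 1.41 and stayed called.

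In the BMP and activin list, 1 of 29 rose and 4 fell, with a median of -0.80, against 13.0% called over all genes tested. Without WT P4 2, 2 rose and 4 fell and the median was -0.17. On leaving out any other library the median was -0.80 to -0.52. Inhbb, the beta B subunit of activin, fell from 209, 213, 486 and 438 CPM to 57.0, 114 and 93.9 CPM (-1.93 ± 0.28, adjusted p = 3.45e-05; -1.26 with the first identifier series alone). Smad7, an inhibitor of this pathway, fell from 59.7 to 84.3 CPM to 18.6 to 21 CPM (-1.80 ± 0.31, adjusted p = 0.00029). In the Wnt list, 3 of 37 rose and 4 fell. Wnt5b, a ligand of the beta-catenin-independent branch, was at 57.5 to 80.1 CPM in WT P4 and 156, 500 and 181 CPM in D542G P4 (2.05 ± 0.46, adjusted p = 0.00287), and without D542G P4 2 it was at 1.33 and not called (adjusted p = 0.0793). Lrp5, a Wnt coreceptor, fell by 1.03 ± 0.22 (adjusted p = 0.00191) and was not called with the first identifier series alone (-0.72, adjusted p = 0.0706). The Notch list had 1 of 20 higher and 1 lower, and the list of epidermal growth factor ligands and ErbB receptors 1 of 17 higher and 2 lower. Erbb4 in the latter (2.16 ± 0.69, adjusted p = 0.036) and Maml2 in the former (1.40 ± 0.46, adjusted p = 0.042) rested on D542G P4 2, and without it were at 0.64 (adjusted p = 0.657) and 0.11 (adjusted p = 0.927). Without WT P4 2 neither was called (adjusted p = 0.0889 and 0.095), and both missed the threshold on leaving out WT P4 4 or 5 as well, as did Maml2 without WT P4 3.

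Cell cycle genes depended on 1 WT library. None of 30 G2 and M phase genes was called with all 7 libraries, although 29 of the 30 log2 changes were above 0 and the median was 1.30. Their summed level was 687, 129, 132 and 139 CPM in WT P4 and 725, 352 and 561 CPM in D542G P4. Without WT P4 2, the library with hair follicle and basal keratins, 23 of the 30 were called higher and the median was 3.24. Mki67, the proliferation marker, showed the same: it was at 37.6, 1.32, 0.672 and 2.39 CPM in WT P4 and 21.4, 14.6 and 16.3 CPM in D542G P4. Its log2 change was 0.72 ± 1.0 (adjusted p = 0.695) with all libraries and 3.57 (adjusted p = 0.0161) without WT P4 2. Of 25 S phase genes, 3 rose and 0 fell with all libraries, and 10 rose without WT P4 2. The 3 were Chaf1b, Mcm7 and Pola1, of DNA replication and chromatin assembly (1.16, 1.23 and 1.38), and leaving out any library but WT P4 2 ended the call of at least 1 of them.

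Of 18 cell cycle regulators, 4 rose and 1 fell, and without D542G P4 1 or with the first identifier series alone 1 rose and 1 fell. Cdk6, a kinase of the G1 phase, rose from 10.3, 8.81, 7.17 and 4.84 CPM to 13.1, 46.2 and 20.1 CPM (1.76 ± 0.35, adjusted p = 0.000954; 1.09 without D542G P4 2). Cdk4, a kinase related to Cdk6, rose from 210 to 315 CPM to 496, 326 and 424 CPM (0.74 ± 0.18, adjusted p = 0.00671) and lost the call without D542G P4 1 (0.59, adjusted p = 0.0597). Cdkn1a, the p21 inhibitor, fell from 310, 318, 485 and 316 CPM to 249, 108 and 100 CPM (-1.23 ± 0.26, adjusted p = 0.00177), and lost the call in a fit of the compared groups alone (-1.18, adjusted p = 0.0722).

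Secreted defence genes rose in 5 of 19 cases and fell in 1, and without D542G P4 2 in 3 and 0. Sftpd, a lung and epithelial collectin, rose from 0.276, 1.43, 0.416 and 0.286 CPM to 5.65, 23.2 and 10.4 CPM (4.43 ± 0.53, adjusted p = 2.2e-06; 3.72 without D542G P4 2 and 5.33 without WT P4 3). Slpi, a leukocyte protease inhibitor, was at 250 CPM in D542G P4 1 but at 16.0 and 6.91 CPM in the other 2 (2.48 to 8.90 CPM in WT P4), and was not called without that library (1.31, adjusted p = 0.0863). Cxcl15, an epithelial chemokine, rose from 164 to 200 CPM to 362 to 497 CPM (1.29 ± 0.25, adjusted p = 0.00101). Of 24 interferon-response genes 4 rose and 1 fell: Cmpk2, a mitochondrial nucleotide kinase, rose by 1.27 ± 0.26 (adjusted p = 0.00146), and Stat2, a transducer of interferon signals, fell by 1.38 ± 0.33 (adjusted p = 0.00582). Ifit2 and the MHC class II gene H2-Ab1 were called higher (2.18 and 1.57) but not without D542G P4 2 (adjusted p = 0.0879 and 0.188).

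Stress genes were read as 2 lists, against 6.24% called higher and 6.80% called lower over all genes tested. Of 22 genes of the unfolded protein response, 0 rose and 3 fell. Trib3, a pseudokinase, fell from 30.7, 38.8, 56.7 and 38.7 CPM to 11.8, 5.77 and 13.5 CPM (-1.99 ± 0.31, adjusted p = 7.75e-05), and Dnajc3, a chaperone of the endoplasmic reticulum, from 434 to 529 CPM to 243 to 282 CPM (-0.87 ± 0.15, adjusted p = 0.000226). Herpud1 fell by 1.71 ± 0.33 (adjusted p = 0.000877) and by 0.67 with the first identifier series alone (adjusted p = 0.106). Of 23 immediate early and dissociation genes, 2 rose and 4 fell, and with the first identifier series alone 5 rose and 1 fell. The summed level of this list was 16300 and 14700 CPM in WT P4 2 and 3, 29000 and 28200 CPM in WT P4 4 and 5, and 13800, 28900 and 12700 CPM in D542G P4. It was thus high in WT P4 4 and 5 and in D542G P4 2, the library set apart above, and without D542G P4 2 the numbers were 0 and 3. Junb and Klf4 were called lower (-1.02 and -1.42) but not within the first identifier series (adjusted p = 0.209 and 0.0778).

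Markers of other cell types showed few calls. Of 16 basal and myoepithelial genes 3 rose and 0 fell, and none was called without D542G P4 2. The 3 were Oxtr, the oxytocin receptor (2.46), Lamb3 (1.05) and Tagln (1.19). Krt5, the defining basal keratin, was at 200 CPM in WT P4 2 and 1.32 to 6.02 CPM in the other 6 libraries. Of 12 fibroblast genes 1 rose (Col6a1, 2.38, a call that any library but D542G P4 3 could end), of 15 leukocyte genes 0 and of 4 erythroid and 6 adipocyte genes 0. Of 12 endothelial genes Vwf, a clotting factor carrier, rose from 51.7 to 98.4 CPM to 142 to 234 CPM (1.52 ± 0.39, adjusted p = 0.00877) and Eng, a coreceptor of the TGF-beta family, fell from 43.5 to 86.9 CPM to 7.57 to 17.7 CPM (-2.32 ± 0.45, adjusted p = 0.000867). Pecam1, a defining endothelial gene, was at 7.34 and 7.49 CPM in WT P4 2 and 3, at 32.4 and 32.5 CPM in WT P4 4 and 5 and at 19.3 to 38.2 CPM in D542G P4. Of 12 mitochondrially encoded genes 2 were called higher, mt-Co1 and mt-Cytb, and neither without D542G P4 2.

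The same mutation was then read under the other treatments, in libraries that share none with the P4 groups. D542G placebo against WT placebo gave 372 called genes (2.02% of those tested), D542G E2 against WT E2 gave 5368 (29.1%), and D542G E2+P4 against WT E2+P4 gave 1232 (6.69%). Of the 2402 genes called under P4, 180 were called with the same sign under placebo, which is 7.5% of the P4 calls and 48.4% of the placebo calls, and 12 with the opposite sign. Under E2 with P4, 479 were called with the same sign (19.9% of the P4 calls, 38.9% of the E2+P4 calls) and 15 with the opposite one. Under E2, 417 had the same sign (17.4% of the P4 calls, 7.8% of the E2 calls) and 767 the opposite sign (14.3% of the E2 calls). The log2 change of Esr1 was -2.01 under placebo, -1.48 under E2 with P4 and 1.85 under E2. That of Cited1 was -2.28, -2.06 and 2.05 in the same order, below 0 in 2 treatments and above 0 under E2. Leaving out single libraries gave 168 to 261 calls under placebo and 510 to 1820 under E2 with P4. Hair follicle keratins were also present under placebo, where Krt35 reached 757 CPM in WT and 299 CPM in D542G. In WT placebo 2, summed G2 and M phase genes were at 1040 CPM, against 121 and 154 CPM in WT placebo 1 and 3. Its basal and myoepithelial genes were at 988 CPM, against 98.4 and 139 CPM. In D542G placebo the 2 lists spanned 141 to 594 CPM and 76.2 to 418 CPM.

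Whether the effect of the mutation differed with progesterone was tested directly, as the effect under P4 minus that under placebo. This difference was called for 617 genes (3.35%), 279 above 0 and 338 below. With the size factors of DESeq2 308 were above and 282 below, and with DESeq2 itself 700 and 577. The number called was 229 without D542G P4 2, 380 without WT P4 5, 254 and 364 without WT placebo 2 and 3, and 244 and 290 without D542G placebo 2 and 3. Calca was at 14.1 ± 6.47 CPM (SD, n = 3) in WT placebo and 11.2 ± 1.22 CPM (SD, n = 3) in D542G placebo, so the mutation changed it by -0.33 without the hormone and by 4.34 with it (difference 4.67 ± 1.13, adjusted p = 0.021). Penk was at 0.614 and 3.19 CPM in the 2 placebo groups, and its effect differed by 7.63 (adjusted p = 0.00659). Tnfsf11 was at 0.231 and 0.134 CPM under placebo, and its difference of 6.58 did not pass the test (adjusted p = 0.103). Fkbp5 missed it too (2.17, adjusted p = 0.0582).

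Genes of lipid metabolism were among those whose effect differed. Msmo1, Sc5d and Hmgcs1 showed log2 changes of 0.03, 0.03 and 0.09 under placebo against -2.29, -1.30 and -1.52 under P4, with differences of -2.33, -1.33 and -1.61 (adjusted p = 0.00128, 0.00128 and 0.0242). Fads1 and Fads2 went the other way, from -1.07 and -0.87 under placebo to 1.48 and 2.16 under P4 (differences 2.55 and 3.03, adjusted p = 0.00224 and 0.00252). Ly6d was at 4360 and 5820 CPM in WT and D542G placebo and differed by -4.16 (adjusted p = 0.0221). Ctsj was at 218 CPM in D542G placebo against 0.0732 CPM in WT placebo, a larger effect without progesterone than with it (difference -8.27, adjusted p = 0.0108). Slc2a3 was likewise at 220 against 0.793 CPM under placebo (8.09), and its difference of -3.00 was not called (adjusted p = 0.167). Esr1 and Cited1 had differences of -0.34 and -0.77 that were not called (adjusted p = 0.756 and 0.574).

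**Figure D5:**
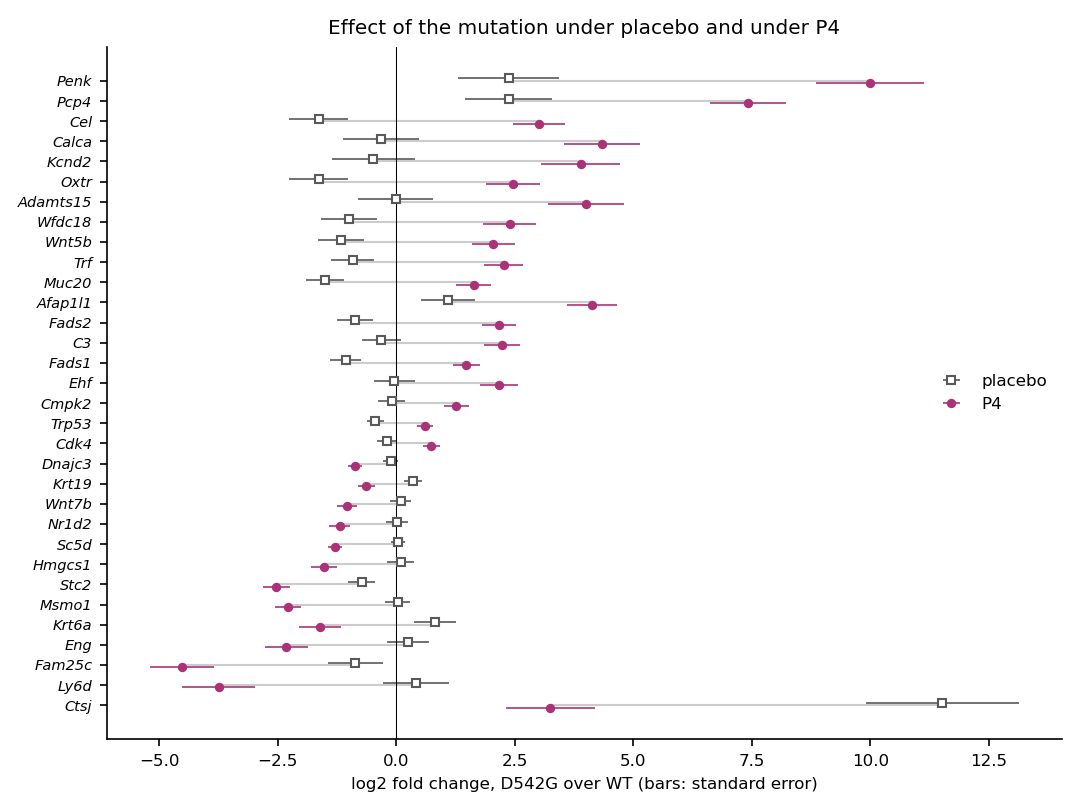
Log2 fold change of D542G over WT (x, with standard errors) under placebo (open squares) and under P4 (filled circles) for the 32 named genes whose effect differed between the 2 treatments. The effects of Penk, Pcp4, Calca and Fads2 are above those under placebo, and those of Msmo1, Stc2, Ly6d and Ctsj are below.

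The other substitution, Y541S, was compared with D542G directly under P4, a comparison that shares the D542G P4 libraries with the one above. Of the genes tested, 2072 (11.2%) were called, 1083 higher and 989 lower in Y541S, and without D542G P4 2 there were 914. Leaving out Y541S P4 1, 2 or 3 gave 1069, 1074 and 946. With the size factors of DESeq2 in place of TMM, the split was 778 higher and 1106 lower. Calca was at 457 ± 59 CPM (SD, n = 3) in Y541S P4, lower than in D542G P4 by 3.64 on the log2 scale (adjusted p = 0.00749). Penk (-4.15, adjusted p = 0.00652), Ctsr (-5.01, adjusted p = 0.00719), Wnt4 (-3.13, adjusted p = 0.00101) and Foxa1 (-2.50, adjusted p = 0.000654) were lower in Y541S too. Greb1 (2.40, adjusted p = 0.00327), Stc2 (2.58, adjusted p = 6.98e-06), Krt4 (2.90, adjusted p = 0.00229), Krt6a (3.83, adjusted p = 2.86e-05) and Slc2a3 (2.82, adjusted p = 0.0258) were higher. For Tnfsf11, Fkbp5, Cited1 and Esr1 the difference did not pass the test (-1.81, 0.73, -0.70 and -0.46, adjusted p 0.228 to 0.384).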

How the data were processed

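RNA-seq libraries of FACS-sorted mature luminal cells were analysed from the counts per gene that the authors deposited, on GRCm38 per the submitters' processing notes; aligner, counter and strand setting are not given in the sources used here. Of 52636 genes, 52489 were matched to a GENCODE M21 name, and the 147 others held at most 0.007% of a library's counts. All 37 libraries and 12 groups were fitted together with edgeR 4.0.16 (R 4.3.3, limma 3.58.1; TMM scaling, filterByExpr by group, robust quasi-likelihood fit), which left 18426 genes and 25 residual degrees of freedom, with a common biological coefficient of variation at 0.458. Genes with a Benjamini-Hochberg adjusted p under 0.05 were called. Standard errors are the absolute log2 change divided by the square root of F. DESeq2 1.42.0 was an alternative, as were other scalings, no filter and left-out libraries. The procedure was tested on simulated data.

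The named genes are the 15 largest protein-coding rises and falls among called genes whose groups lay apart and whose mean log2 CPM reached 2, a panel of 20 genes, up to 4 called members of each list with the smallest p, and the most abundant gene of each marker list. The members and lists were chosen with earlier results of these data known. Other genes are stated as looked up after their values were seen, or are list members given as examples. Replicate numbers are not stated to pair the samples, so the main fit did not pair them. The labels name neither animals nor pools, so p-values reflect only how these samples vary, which may be technical. Some genes are not reported here.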

Additional observations from a re-analysis of the deposited data

Results flagged for a closer look

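Among the 132 named genes, 12 had a WT P4 library far from the other 3 by Dixon's test, where chance flags about 5% of groups, and 4 of the 12 were in WT P4 2. In WT P4 2 these were Mki67 at 37.6 CPM and Scd2 at 167 CPM, and Csn2 and Cts6 at 0.023 CPM each, which is 1 count. In WT P4 3 they were Col3a1 at 212 CPM, Trp53 at 70.1 CPM, Dpep2 at 5.3 CPM, Sftpd at 1.43 CPM and Csn1s1 at 0.027 CPM. In WT P4 4 they were Cited1 at 1590 CPM and Cdkn1a at 485 CPM, and in WT P4 5 Vwf at 98.4 CPM. For Csn2, Csn1s1 and Cts6 the flagged library held the only count in WT P4. Those flags were thus fixed in advance and cannot be set against the 5%.

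For 32 named genes the effect of the mutation differed between P4 and placebo by edgeR's test of the difference, 19 with a value above 0 and 13 below. Above 0, in log2 units, were Penk at 7.63, Pcp4 at 5.06, Calca at 4.67, Cel at 4.67, Kcnd2 at 4.37, Oxtr at 4.1 and Adamts15 at 4.01. Next were Wfdc18 at 3.39, Wnt5b at 3.22, Trf at 3.19 (99.5% of its genomic span overlaps other annotated genes, so its counts are uncertain, as are those of Pcp4), Muc20 at 3.13, Afap1l1 at 3.04 and Ehf at 2.2. The desaturases Fads2 and Fads1 were at 3.03 and 2.55, C3 at 2.56, Cmpk2 at 1.38, Trp53 at 1.05 and Cdk4 at 0.94. Below 0 were Ctsj at -8.27, Ly6d at -4.16, Fam25c at -3.66, Eng at -2.57, Krt6a at -2.43 and Msmo1 at -2.33. Stc2 was at -1.8, Hmgcs1 at -1.61, Sc5d at -1.33, Nr1d2 at -1.2, Wnt7b at -1.12, Krt19 at -0.98 and Dnajc3 at -0.75. These differences were not followed gene by gene with libraries left out. Of the 617 called over all genes, 217 were still called without D542G P4 2. Leaving out WT placebo 2 or D542G placebo 2 kept 239 or 231. Wfdc18, Wnt5b, Muc20, Oxtr, Krt6a and Krt19 lost the call of D542G P4 against WT P4 without D542G P4 2.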

How the results depend on the processing

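The number of genes called in D542G P4 against WT P4 was 1361 with the first identifier series alone, 1465 without both WT P4 2 and D542G P4 2, 1536 with only the compared groups and 1285 to 2427 on leaving out 1 library each. Of the 2402 calls, 1169 were still made without D542G P4 2 and 1206 with the first identifier series alone. With a replicate block 1649 were called. Replicate numbers 2 and 3 correlated across the groups at -0.097 and 0.027, which is too little to decide whether the numbers pair the samples. For the difference between P4 and placebo, DESeq2 called 1277 and leaving out 1 library each gave 229 to 733. For Y541S against D542G that range was 914 to 2053. DESeq2 called 678 under placebo and 1941 under E2 with P4, and the ranges without 1 library were 168 to 261 and 510 to 1820. With only the compared groups, 2561 were called under E2 and 127 under E2 with P4. Of 119 named genes called, 59 kept call and direction in every setting run and 60 lost the call in at least 1, 34 of them without D542G P4 2, 25 with only the compared groups and 37 with the first identifier series alone. Maml2 was at -0.01, and so without a change, when WT P4 2 and D542G P4 2 were left out together. The cause of the lost calls was not tested. Fits with libraries left out also held fewer samples.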
